A study of Mus musculus with 2 samples.

Results

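The secondary granule genes described here are Ltf, Lcn2, Camp, Ngp, Cd177, Chil3, Pglyrp1, Itgb2l, Ifitm6 and Hp, 10 of the 32285 genes counted, taken by name as genes whose products neutrophil precursors make for their secondary granules or alongside them. They were measured in a pair of single-cell RNA sequencing libraries of myeloid-derived suppressor cells (MDSC), grown from unsorted bone marrow of female wild-type C57BL/6 mice aged 10 weeks. Marrow was cultured for 4 days in GM-CSF and IL-6, both at 50 ng/mL, and either 1.5 µM dabrafenib (DAB, an inhibitor of the kinase BRAF) or the same volume of its solvent DMSO was present throughout. Each condition was 1 library, and the sources used here do not give the number of mice behind it, so no spread between replicates can be estimated and no test or p-value is given. The comparison asks how the granule program of the developing granulocytes differed between the drug and its solvent.

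Neutrophils build their granules in order as they mature. The primary (azurophil) granules are filled with proteases and myeloperoxidase at the promyelocyte stage, and the secondary (specific) granules at the myelocyte and metamyelocyte stages, under factors of the C/EBP family of which C/EBPε is the best known. Transcription of the secondary granule genes is switched off again before the cell becomes a segmented neutrophil, while the proteins stay in the granules, so the mRNA marks a stage of maturation rather than the content of the mature cell.

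After filtering, 9032 DMSO cells with 93024998 unique molecular identifiers (UMIs, each 1 counted mRNA molecule) and 10476 DAB cells with 141576822 UMIs remained, with medians of 7577 and 9487 UMIs per cell, and 127 cell barcodes occurred in both libraries. Levels are UMIs scaled to 1000000 UMIs of the same cells (CPM), and since the chemistry counts 5′ ends they are not divided by gene length and are compared between libraries or cells only, not between genes. Ratios are log2 of DAB over DMSO with an exact 95% interval, and, like every interval here, these cover counting error only. A direction was read where the log2 ratio was 0.5 or more in size and its interval did not hold 0, and a gene counted as called at 2-fold. Cells were clustered without the 10 genes and named from markers that hold none of them. Of 27 clusters, 12 were named, and 15 with 45.0% of DMSO and 48.9% of DAB cells stayed unnamed. The culture labelled as MDSC also held B cell-like cells (146 in DMSO and 192 in DAB), whose UMIs of these genes are taken as a rough measure of free RNA in the droplets. Whether these UMIs were free RNA or came from mixed cells was not tested. The B cell-like cells had a median depth of 4043.5 UMIs in DMSO and 5021 in DAB, against 16997 and 17160 in immature monocyte-like cells. The same free RNA per droplet gives a lower CPM in a deeper cell. A CPM not above theirs therefore does not show that a class held free RNA alone.

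Over all cells, 5 of the 10 genes (Ltf, Camp, Ngp, Chil3 and Hp) were at least 2-fold lower in the DAB library and 0 were at least 2-fold higher. Among all 5507 genes with a mean of at least 20 CPM, 2.31% were this much lower and 2.11% this much higher. The median log2 ratio of the 10 genes was -0.92, beside 0.015 over all these genes. Of the 10, 9 reached 20 CPM, with a median of -1.44, and Itgb2l did not. Together the 10 genes took 1.12% of the UMIs in DMSO and 0.509% in DAB.

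**Figure D1:**
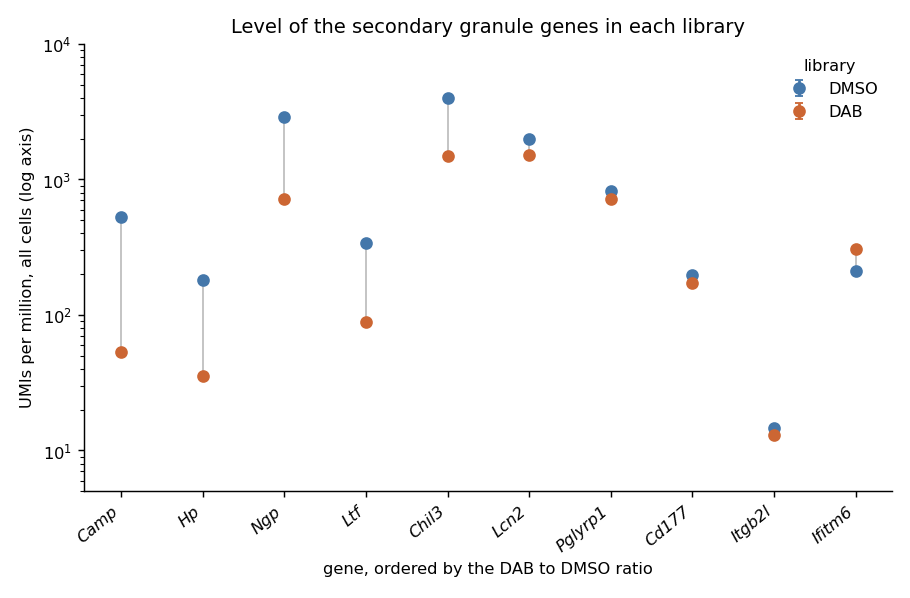
Level of each gene over all cells in CPM (log axis) in the DMSO and the DAB library, with exact 95% Poisson intervals that are mostly smaller than the points, ordered by the ratio. Camp (531 against 52.9), Hp (181 against 35.2), Ngp (2894 against 713), Ltf (339 against 88.8) and Chil3 (4023 against 1484) lie apart, and Ifitm6 is the gene with the higher DAB point.

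Among the proteins that bind iron or its carriers, Ltf encodes lactoferrin, which takes up free iron (ENSMUSG00000032496, chr9:111019271-111042767 of GRCm38, plus strand). Its level was 339 CPM (336 to 343) in DMSO and 88.8 CPM (87.3 to 90.4) in DAB, a log2 ratio of -1.93 (-1.96 to -1.90). Lcn2 encodes lipocalin 2, which captures bacterial siderophores (ENSMUSG00000026822, chr2:32384633-32388252, minus strand). It stood at 1988 CPM in DMSO and 1509 CPM in DAB, a log2 ratio of -0.40, below the size from which a direction was read. As a mean over cells, each cell weighing the same, the log2 ratio of Lcn2 was -0.84. Hp encodes haptoglobin, which binds free haemoglobin (ENSMUSG00000031722, chr8:109575128-109579172, minus strand). Its level was 181 CPM in DMSO and 35.2 CPM in DAB, a 5.15-fold difference with a log2 ratio of -2.36 (-2.41 to -2.32).

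Camp encodes the cathelicidin precursor, from which an antimicrobial peptide is cut (ENSMUSG00000038357, chr9:109847379-109849617, minus strand). It had the lowest ratio of the 10 genes, with 531 CPM (527 to 536) in DMSO and 52.9 CPM (51.7 to 54.2) in DAB, 10.0-fold lower with a log2 ratio of -3.33 (-3.36 to -3.29). Ngp encodes neutrophilic granule protein, a relative of the cathelicidins and cystatins, and lies near Camp (ENSMUSG00000032484, chr9:110419747-110423012, plus strand). Its level was 2894 CPM in DMSO and 713 CPM in DAB, a log2 ratio of -2.02 (-2.03 to -2.01). Chil3 encodes the chitinase-like lectin Ym1, which mouse granulocytes and alternatively activated monocytes both make (ENSMUSG00000040809, chr3:106147554-106167564, minus strand). It was at 4023 CPM in DMSO and 1484 CPM in DAB, a log2 ratio of -1.44 (-1.45 to -1.43). The near-identical Chil4, with which it could share reads, had 84 UMIs in DMSO and 33 in DAB against 374207 and 210141 of Chil3.

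The other genes did not reach 2-fold. Pglyrp1 encodes a peptidoglycan recognition protein of the granules (ENSMUSG00000030413, chr7:18871331-18890459, plus strand). It was at 826 CPM in DMSO and 717 CPM in DAB, a log2 ratio of -0.20. Cd177 encodes a glycosylphosphatidylinositol-anchored glycoprotein of granule and cell surface membranes (ENSMUSG00000052212, chr7:24743983-24760311, minus strand). Its level was 197 CPM in DMSO and 173 CPM in DAB, a log2 ratio of -0.19. Itgb2l encodes an integrin β subunit related to Itgb2 (ENSMUSG00000000157, chr16:96422288-96443619, minus strand) and overlaps Igsf5 on the opposite strand. With 14.6 CPM in DMSO and 12.9 CPM in DAB it had a log2 ratio of -0.18 (-0.28 to -0.07), and of -0.62 as a mean over cells. Ifitm6 encodes a member of the interferon-induced transmembrane family (ENSMUSG00000059108, chr7:141015699-141017924, minus strand). It was the gene with a higher DAB level, 210.0 CPM in DMSO and 305 CPM in DAB, a log2 ratio of 0.54 (0.51 to 0.56), but as a mean over cells, each cell weighing the same, its log2 ratio was -0.13.

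Secondary granule genes are known targets of C/EBP factors, and their promoters were searched for the C/EBP letters TTNNGNAA on both strands in the 250 bases before the RefSeq start. RefSeq promoters (GRCm38.p6) were at hand for 9 of the 10 genes, all but Hp. Against the GENCODE gene positions, the windows of Chil3 and Cd177 lay wholly before the gene. Those of Ltf, Ngp, Camp and Itgb2l reached 21, 61, 161 and 5 bases into it, and those of Lcn2, Pglyrp1 and Ifitm6 lay within it, so these may hold transcribed sequence. The letters occurred in 7 of the 9 windows, and in 36.8% of all 32851 windows of the same length. They were in the windows of genes that were over 2-fold lower (Ltf, Ngp, Chil3) and of genes that were not (Lcn2, Cd177, Itgb2l, Ifitm6), and were not found in those of Camp and Pglyrp1. The C/EBP-ATF composite letters TGATGNAA, searched because the study concerns the amino acid sensing kinase GCN2, whose pathway runs through ATF4, were in 0 of 9 and in 3.45% of all windows. The PU.1 letters GAGGAAGT were in 1 of 9 (Itgb2l) and in 2.44% of all. No pair of these letter sets can match the same 8 bases, but matches may overlap in part. The stretches before the gene of Ltf, Ngp and Chil3, with lower DAB levels, and of Cd177, without, are shown 5′ to 3′ on the gene's strand, with C/EBP letters in capitals. The Ltf and Ngp stretches end where the GENCODE gene begins, at 229 and 189 bases, and the others have 250 bases.
Ltf, chr9:111019042-111019270, plus strand: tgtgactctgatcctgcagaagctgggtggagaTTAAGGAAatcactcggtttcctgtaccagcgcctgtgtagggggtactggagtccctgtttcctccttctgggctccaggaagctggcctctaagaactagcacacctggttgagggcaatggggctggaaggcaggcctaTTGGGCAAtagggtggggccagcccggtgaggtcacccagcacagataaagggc
Ngp, chr9:110419558-110419746, plus strand: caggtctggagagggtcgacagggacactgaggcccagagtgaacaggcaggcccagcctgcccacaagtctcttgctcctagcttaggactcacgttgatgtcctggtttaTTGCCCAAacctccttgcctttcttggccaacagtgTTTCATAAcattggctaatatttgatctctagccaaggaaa
Chil3, chr3:106167565-106167814, minus strand: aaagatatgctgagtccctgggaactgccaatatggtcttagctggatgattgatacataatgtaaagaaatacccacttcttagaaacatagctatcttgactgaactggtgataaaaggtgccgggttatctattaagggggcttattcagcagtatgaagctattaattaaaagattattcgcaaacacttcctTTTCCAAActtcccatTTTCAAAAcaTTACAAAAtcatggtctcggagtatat
Cd177, chr7:24760312-24760561, minus strand: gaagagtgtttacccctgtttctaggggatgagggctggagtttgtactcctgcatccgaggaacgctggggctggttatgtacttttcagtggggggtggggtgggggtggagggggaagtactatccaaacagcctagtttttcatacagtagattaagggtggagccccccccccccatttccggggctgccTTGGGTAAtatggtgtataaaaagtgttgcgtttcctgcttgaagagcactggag
Ltf showed 2 matches, Chil3 3 and Cd177 1, and of the 3 matches of Ngp 1 lies beyond the stretch shown. Matching letters describe the sequence only and show no binding.

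The named classes placed the genes along granulocyte maturation. The cluster called intermediate granulocyte-like was led by Ceacam10 and Ly6g. It was named from a list of 10 markers, of which 7 reached a log2 fold of 1, Ly6g and Anxa1 among them. Among the named classes it had the highest level for all 10 secondary granule genes in both libraries. It held 1452 DMSO cells with a median of 6481 UMIs and 634 DAB cells with a median of 8563.5 UMIs. In DMSO it held between 25.4% (Hp) and 69.2% (Ltf) of a gene's UMIs, with a median over the genes of 55.6%, and in DAB between 7.85% (Ifitm6) and 47.6% (Camp), with a median of 19.6%. The 10 genes took 4.86% of this class's UMIs in DMSO and 2.39% in DAB. In DMSO they took 0.737% of the mature PMN-like class's UMIs, 0.705% in chemokine-high granulocyte-like, 0.352% in granulocyte progenitor-like, 0.223% in immature monocyte-like and 0.0598% in mature monocyte-like cells. The B cell-like class had 0.0884% in DMSO and 0.0297% in DAB.

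**Figure D2:**
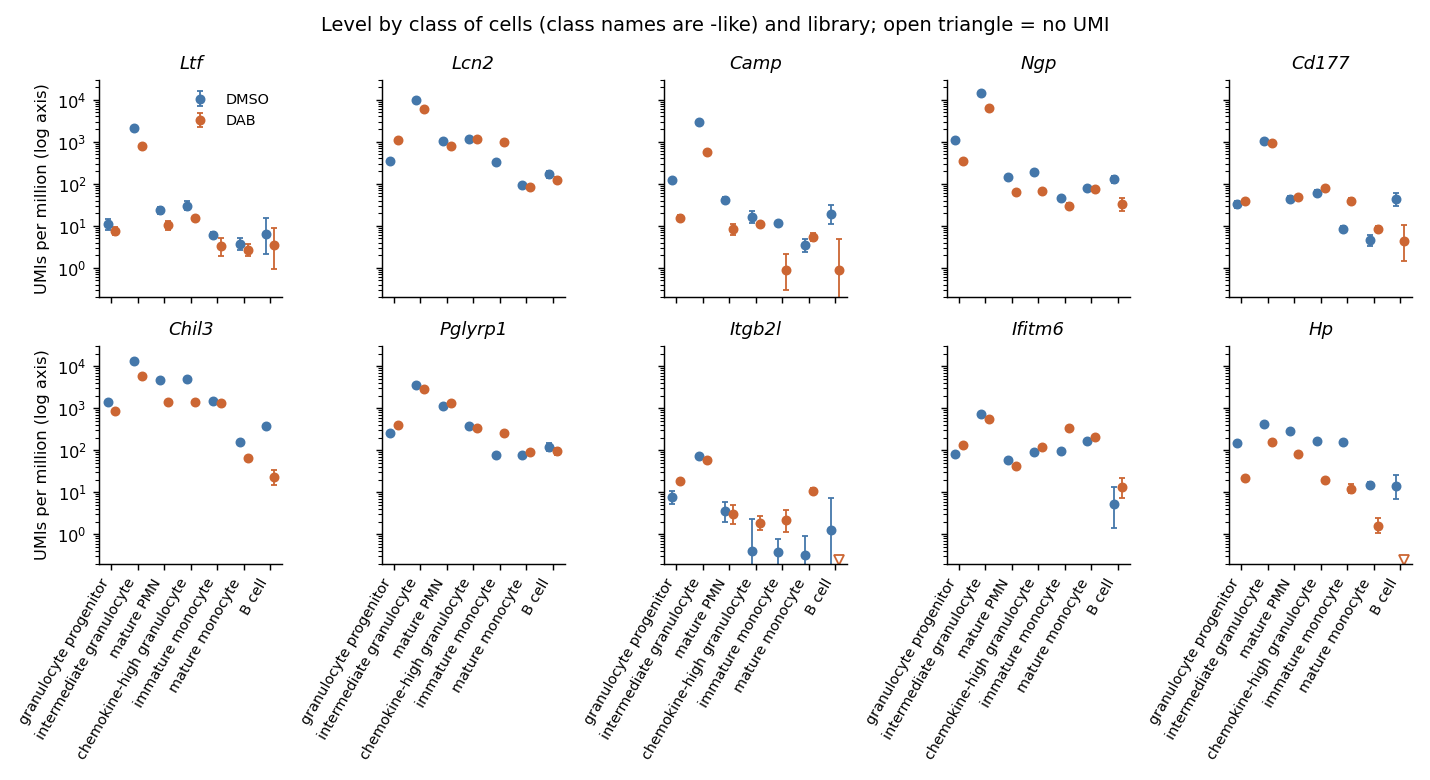
Level of each gene in CPM (log axis) in 7 classes of cells, DMSO and DAB side by side with exact 95% Poisson intervals. Every gene peaks in the intermediate granulocyte class. Hp, Chil3 and Ngp have the lower DAB point in all 7 classes, while Lcn2, Pglyrp1 and Ifitm6 have the higher DAB point in granulocyte progenitor and immature monocyte cells.

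Within the intermediate granulocyte-like class the same 5 genes were at least 2-fold lower in DAB and 0 were higher, where 1.94% of 4834 genes were this much lower and 2.17% this much higher. All 10 genes reached 20 CPM there. Camp was at 2914 CPM in DMSO and 578 CPM in DAB, a log2 ratio of -2.33 (-2.38 to -2.28). Hp was at 414 and 155 CPM, a log2 ratio of -1.42 (-1.52 to -1.32). Ltf was at 2111 and 798 CPM, a log2 ratio of -1.40 (-1.45 to -1.36). All 3 were lower in DAB by a smaller ratio than over all cells. Ngp was at 14894 CPM in DMSO and 6309 CPM in DAB, a log2 ratio of -1.24. Chil3 was at 13031 and 5705 CPM, a log2 ratio of -1.19. Lcn2, at 9829 and 6002 CPM, was read lower with a log2 ratio of -0.71 (-0.73 to -0.69) but did not reach 2-fold. For Ifitm6 (734 and 549 CPM), Pglyrp1 (3605 and 2832 CPM), Itgb2l (73.9 and 59.5 CPM) and Cd177 (1017 and 925 CPM) no direction was read, with log2 ratios from -0.42 to -0.14. The median of the 10 genes was -0.95, beside 0.061 over all genes of the class.

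The median of the 10 genes in this class was -0.73 without alignment of the libraries and -0.91 at a clustering resolution of 0.5. It was -0.58 at resolution 1.5 and -0.89 without cell cycle regression. When the 10 genes were themselves among the variable genes, the class held 792 DMSO and 139 DAB cells, and the median log2 ratio of the 10 genes was -0.07. This last setting groups cells by the values compared here, which can make the libraries more alike within a class, and whether it did so was not tested. Camp then had a log2 ratio of -1.14, Hp -0.94 and Chil3 -0.64, while Ngp was at -0.22 and Ltf at -0.12. The main setting leaves these stage-marking genes out. Whether its class held the same mix of stages in both libraries was not tested either. In cells taken by at least 2 Ly6g UMIs, with no clustering, 1536 DMSO and 1073 DAB cells gave a median of -1.26, with Camp at 2831 CPM in DMSO and 285 CPM in DAB and Ngp at 14199 and 4103 CPM.

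To separate the share of cells with a transcript from its amount per cell, the UMIs of every cell were drawn down at random to 1500, without the 430 DMSO and 290 DAB cells that had fewer. In the intermediate granulocyte-like class 1419 DMSO and 633 DAB cells remained. Ltf had a UMI in 44.3% of them in DMSO (41.7 to 46.9) and 22.4% in DAB (19.2 to 25.9), with means of 6.75 and 4.70 UMIs in the cells that had any. Camp had a UMI in 43.6% and 13.7%, with means of 10.6 and 5.61 UMIs in those cells. Ngp had a UMI in 69.3% and 38.1%, with means of 32.2 and 21.5 UMIs. For these 3 genes both the share of cells and the number of UMIs in a positive cell were lower in DAB. Chil3 was detected in 95.2% of cells in DMSO and 74.1% in DAB, with means of 19.0 and 10.3 UMIs. Lcn2 was found in 97.5% and 91.2% of the cells, and its mean in positive cells was 15.2 and 9.03 UMIs. In B cell-like cells, with median depths of 4043.5 and 5021 UMIs before thinning, the shares were 0.735% of 136 DMSO and 0 of 179 DAB cells for Ltf, which allows up to 1.68%, 2.21% and 0.559% for Camp, 4.41% and 8.38% for Ngp, 12.5% and 3.91% for Chil3 and 4.41% and 4.47% for Lcn2.

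**Figure D3:**
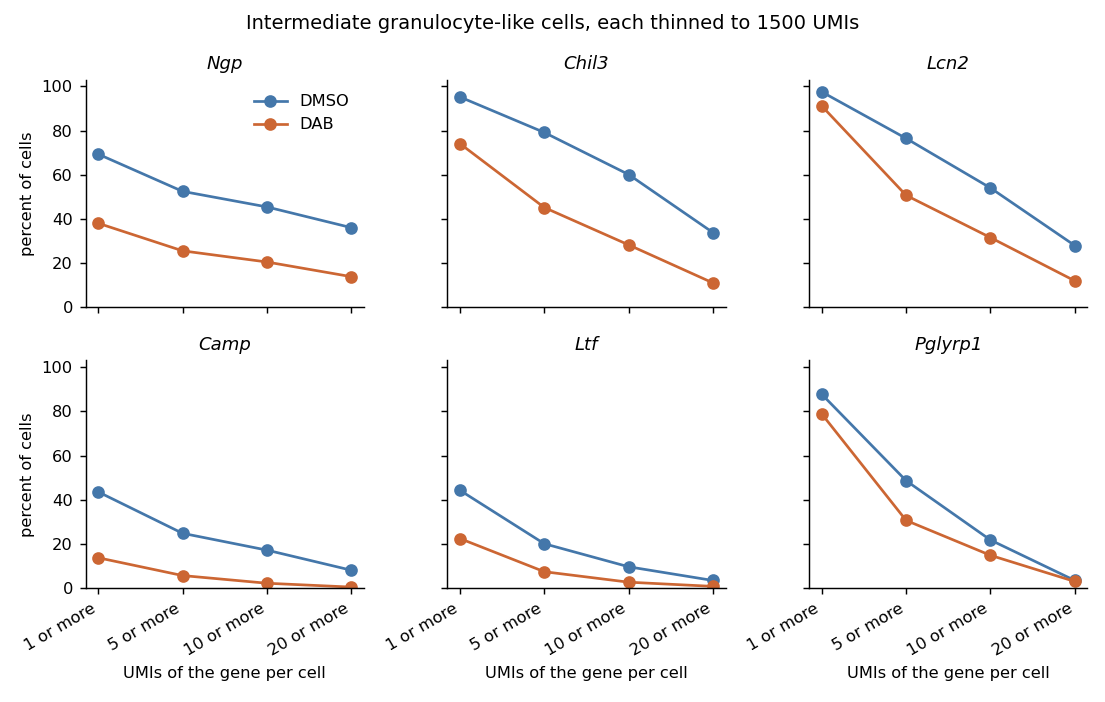
Percent of intermediate granulocyte-like cells with at least 1, 5, 10 or 20 UMIs of a gene after thinning each cell to 1500 UMIs, for 6 genes in DMSO and DAB. The DAB line lies below the DMSO line throughout for each of the 6 genes, and for Pglyrp1 the lines nearly meet at 20 UMIs (3.45% and 3% of cells).

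Single cells of the class ranged widely. In DMSO the median cell had 6 Ngp UMIs and the highest had 176, with 36.1% of cells at 20 or more. In DAB the median was 0 and the highest 115, with 13.9% at 20 or more. Camp reached 66 UMIs in a DMSO cell and 52 in a DAB cell, so cells with a high Camp count were present in both libraries, and 17.2% of DMSO and 2.21% of DAB cells had 10 or more. All 3 of Ltf, Camp and Ngp, a set put together with their values known, were detected together in 33.1% (30.6 to 35.6) of the cells in DMSO and 9.48% (7.31 to 12.0) in DAB. Over all thinned cells these shares were 8.14% and 1.27%.

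The genes did not occur in the same cells to the same degree. In DMSO, Camp was found in 77.5% of the 628 cells of the class with Ltf and in 16.6% of the 791 without, and in DAB in 43.7% of 142 and 5.09% of 491. Ngp was found in 94.6% of the Ltf cells in DMSO and 90.1% in DAB, against 49.3% and 23.0% of the cells without Ltf. Ngp was thus found about as often in Ltf cells of both libraries, and Camp less often in DAB. Chil3 was found in 95.5% of Ltf cells and 94.9% of the others in DMSO, and in 67.6% and 76.0% in DAB. The correlation of log UMIs with Ltf across these thinned cells, which share their library and depth, was 0.71 for Camp and -0.01 for Chil3 in DMSO, and 0.64 and 0.08 in DAB.

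In mature PMN-like cells (clusters G, J and P, 1096 DMSO and 1408 DAB cells), named from later markers such as Csf3r and Cxcr2, levels were lower in both libraries. Most DMSO cells of the class were in G (633) and most DAB cells in J (711). Again Ltf, Camp, Ngp, Chil3 and Hp were at least 2-fold lower in DAB and 0 were higher. Ltf was under 20 CPM, and of the 8 genes that reached it 4 were lower, where 1.97% of all genes at 20 CPM or more were lower and 2.63% higher. Chil3 was at 4590 CPM in DMSO and 1371 CPM in DAB, a log2 ratio of -1.74 (-1.78 to -1.71). Hp was at 292 and 80.8 CPM, a log2 ratio of -1.85 (-2.01 to -1.70). Pglyrp1 was at 1103 and 1305 CPM, with no direction read. Ngp was at 142 and 63.3 CPM, against 128 and 32.5 CPM in B cell-like cells, and in DMSO its interval did not lie above theirs. Ltf was at 23.5 and 10.3 CPM, against 6.45 and 3.51 CPM, and in DAB its interval did not lie above theirs. Camp, at 41.6 and 8.32 CPM against 19.3 and 0.878 CPM, was above the B cell-like class in CPM in both libraries. Mature PMN-like cells were shallower, with medians of 3178.5 and 3333 UMIs against 4043.5 and 5021 in B cell-like cells. The same free RNA gives a higher CPM in a shallower cell, and its part in these levels was not tested. When the 10 genes took part in the clustering, the class's median log2 ratio was 0.022 in place of -0.82, while Hp stayed at -2.54 and Chil3 at -1.26.

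Chemokine-high granulocyte-like cells (clusters F and K, 340 DMSO and 1768 DAB cells) were named from chemokine genes, with Csf3r or S100a8 above the rest. Cluster F (266 DMSO and 1019 DAB cells) was led by Gpnmb, Ccl2, Ccl3 and Atp6v0d2. Cluster K (74 and 749 cells) was led by Cxcl3, Cxcl2 and Mmp13, so the libraries differed in their mix of F and K. Neither Csf3r nor S100a8 was among the 10 leading genes of F or K. The granulocyte part of the name rests on that condition only, and the lineage of these cells was not tested. The genes at least 2-fold lower in DAB in this class were Hp, Chil3 and Ngp, all among the 8 that reached 20 CPM. At that level 2.32% of all genes were lower and 1.3% higher. Hp was at 169 CPM in DMSO and 19.4 CPM in DAB, a log2 ratio of -3.13 (-3.35 to -2.91). Chil3 was at 4964 and 1404 CPM, a log2 ratio of -1.82. Ngp was at 190.4 and 66.6 CPM, with 128 and 32.5 CPM in B cell-like cells beside it. Lcn2 was at 1158 and 1137 CPM, a log2 ratio of -0.03 (-0.08 to 0.03). Itgb2l, under 20 CPM, was over 2-fold higher on 1 UMI in DMSO and 29 in DAB, and its interval (-0.39 to 7.55) spanned 0.

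In granulocyte progenitor-like cells (cluster N, 212 DMSO and 371 DAB cells), led by the primary granule genes Elane, Prtn3, Ctsg and Mpo, the genes parted in both directions. Camp, Ngp and Hp were at least 2-fold lower and Lcn2 and Itgb2l at least 2-fold higher. Without Itgb2l, which was under 20 CPM, 3 of 8 genes were lower and 1 higher, where 3.86% of all genes at that level were lower and 4.04% higher. Lcn2 was at 346 CPM in DMSO and 1102 CPM in DAB, a log2 ratio of 1.67 (1.59 to 1.75), and after thinning it had a UMI in 32.5% and 54.7% of cells. Pglyrp1 was at 263 and 409 CPM, a log2 ratio of 0.64. Ifitm6 was at 79.7 and 136 CPM, a log2 ratio of 0.78. For these genes the DAB progenitors held more. In the same cells Camp was at 124 CPM in DMSO and 15.4 CPM in DAB, a log2 ratio of -3.00, and Ngp at 1129 and 340.4 CPM, a log2 ratio of -1.73. Hp was at 146 and 21.7 CPM, a log2 ratio of -2.76. Few of the thinned progenitor-like cells held Camp, 4.72% in DMSO against 0.539% in DAB. Ngp was detected in similar shares, 10.4% and 9.16%, but its positive cells averaged 21.4 UMIs in DMSO and 5.47 in DAB. For Hp the shares were 16.0% and 2.43%. After thinning, the Camp and Ngp differences of this class thus rested on a minority of its cells.

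In immature monocyte-like cells (cluster D, 1065 DMSO and 308 DAB cells), led by Nos2, Mmp12 and Arg1 among others, 5 genes were at least 2-fold higher in DAB and 2 lower. Itgb2l among the higher and Camp among the lower were under 20 CPM, which leaves 4 higher and 1 lower of 7 genes, where 2.81% of all genes at that level were higher and 3.53% lower. Lcn2 was at 325 CPM in DMSO and 963 CPM in DAB, a log2 ratio of 1.57 (1.51 to 1.62). Ifitm6 was at 95.2 and 346 CPM, a log2 ratio of 1.86, and Pglyrp1 at 76.3 and 261 CPM, a log2 ratio of 1.77. Cd177 was at 8.55 and 39.9 CPM, a log2 ratio of 2.22. The fifth, Itgb2l, rested on 7 and 12 UMIs. In B cell-like cells Lcn2 was at 168 and 126 CPM, Ifitm6 at 5.16 and 13.2 CPM, Pglyrp1 at 121 and 93.9 CPM and Cd177 at 43.9 and 4.39 CPM, so that in DMSO neither Pglyrp1 nor Cd177 was above that level. Hp was at 161 CPM in DMSO and 12.1 CPM in DAB, a log2 ratio of -3.73 (-4.10 to -3.38), against 11 and 0 UMIs in the B cell-like class. Camp was at 11.5 and 0.902 CPM, against 19.3 and 0.878 CPM in the B cell-like class. The class's median log2 ratio was 0.68, but it was -0.15 when the 10 genes took part in the clustering and -0.46 without alignment of the libraries, where 51 DAB cells were in the class.

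In mature monocyte-like cells (cluster H, 476 DMSO and 523 DAB cells), led by MHC class II genes, 2 genes were at least 2-fold lower and 1 higher. Of the 5 genes that reached 20 CPM, Chil3 was lower and 0 were higher, where 4.95% of all genes at that level were lower and 3.18% higher. Hp was at 14.7 CPM in DMSO and 1.61 CPM in DAB and Chil3 at 156 and 65.6 CPM. In DMSO neither interval lay above that of the B cell-like class, at 14.2 CPM for Hp and 377 CPM for Chil3. Ifitm6 was at 164 and 203 CPM, well above its level in B cell-like cells in both libraries, with no direction read. Itgb2l had 3 UMIs in DMSO and 167 in DAB, 0.318 and 10.8 CPM.

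Of 18 clusters in which both libraries had 100 or more cells, 1 was the B cell-like one, where Hp, Camp, Ngp, Chil3 and Cd177 were read lower in DAB from UMIs taken here as free RNA. In the other 17 clusters Hp was read lower in DAB in 17. Camp, Ngp and Chil3 were each read lower in 14, and Ltf in 10. Of these, Camp was the one that was also read higher, in 1 cluster, the mature monocyte-like one, where it had 33 and 86 UMIs. Lcn2 was read lower in 5 clusters and higher in 5, Pglyrp1 lower in 2 and higher in 5, Cd177 lower in 1 and higher in 6, and Ifitm6 lower in 3 and higher in 7. Itgb2l was read higher in 3 clusters and lower in 0. The median log2 ratio over these clusters was lowest for Camp at -2.84 and Hp at -2.26, and highest for Ifitm6 at 0.32. The share of all genes read lower or higher by this rule was not counted. All clusters come from the same pair of libraries. Some of the levels behind these counts were not above the B cell-like class in either library, such as Camp in both monocyte-like classes and Ngp in immature monocyte-like cells.

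**Figure D4:**
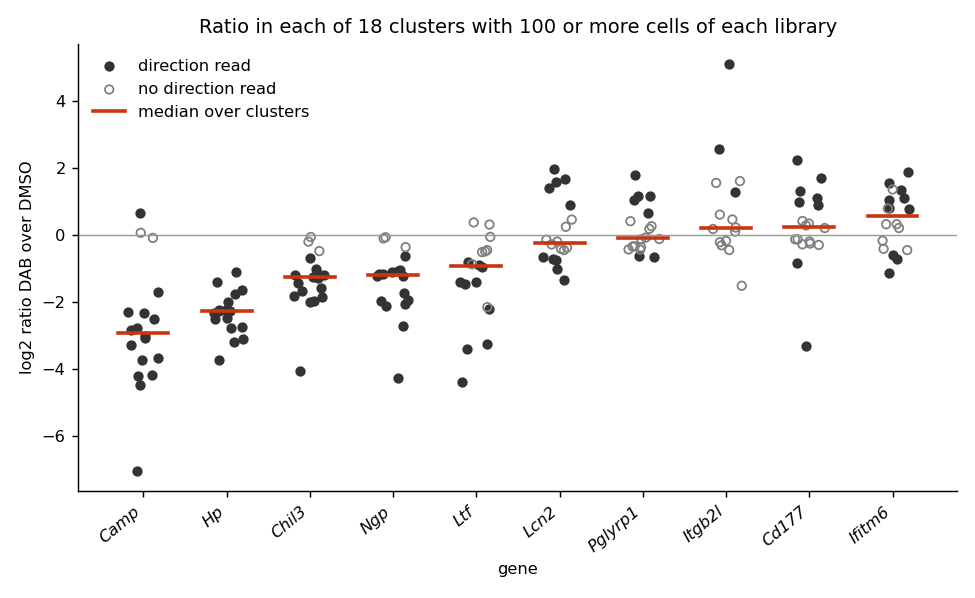
Log2 ratio of DAB over DMSO for each gene in each of 18 clusters, the B cell-like one included (points), filled where a direction was read, with the median over clusters as a bar. A cluster with no UMI of the gene in 1 library has no point (1 for Hp and 3 for Itgb2l). The 17 points of Hp lie below 0 (-3.73 to -1.10), whereas those of Lcn2 run from -1.34 to 1.95.

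To hold the mix of clusters fixed, the DAB clusters were given the shares of UMIs that the clusters had in DMSO (25 clusters, 99.6% of DMSO UMIs). Camp then had a log2 ratio of -2.61 in place of -3.33, Hp -2.12 in place of -2.36, and Ngp -1.53 in place of -2.02. Ltf was at -1.42 in place of -1.93 and Chil3 at -1.17 in place of -1.44. The median of the 10 genes was -0.75. It was -0.76 without alignment, -0.75 at resolution 0.5, -0.72 at resolution 1.5 and -0.75 without cell cycle regression. When the 10 genes took part in the clustering it was -0.09. That setting groups cells by the values compared here, which can make the libraries more alike within clusters, and whether it did so was not tested. Under the main setting, whether a cluster held the same mix of stages in both libraries was not tested either.

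In the unnamed clusters together the 10 genes took 1.07% of the UMIs in DMSO and 0.562% in DAB. Of these clusters 3 are described here, chosen without a set rule. Others held these genes too, such as cluster Q with Ngp at 1136 CPM in DMSO and 58.8 CPM in DAB. Cluster L, led by Retnlg and Ly6g (166 DMSO and 440 DAB cells), resembled the intermediate class. Camp was there at 812 CPM in DMSO and 166 CPM in DAB, Hp at 430 and 92.0 CPM, Ltf at 1001 and 519 CPM and Ngp at 7341 and 3444 CPM, while Cd177 was at 1252 and 1143 CPM. Cluster O, led by the mitosis genes Ube2c, Cenpf and Top2a (275 DMSO and 284 DAB cells), held Camp at 845 and 46.2 CPM, a log2 ratio of -4.19 (-4.33 to -4.06), and Ltf at 264 and 25.2 CPM. In this cluster Lcn2 was at 1318 and 1144 CPM with no direction read, and Ifitm6 at 104 and 264 CPM was higher in DAB with a log2 ratio of 1.34. Cluster W, led by the metallothioneins Mt2 and Mt1 with Chil1 and Fcnb, held 172 DMSO and 38 DAB cells. Ngp was there at 13712 CPM in DMSO and 223 CPM in DAB, a log2 ratio of -5.94 (-6.26 to -5.65), and Camp had 2117 UMIs in DMSO and 1 in DAB. In the same cells Chil3 was at 7215 and 6202 CPM, a log2 ratio of -0.22, and Pglyrp1 at 1327 and 1147 CPM.

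Over 44 profiles (22 clusters in which both libraries had 50 or more cells, the libraries apart), the levels of Camp and Ngp ran most closely together among the 10 genes, with a Pearson r of 0.93, followed by Ltf and Ngp at 0.92. Lcn2 and Cd177 had 0.90 and Chil3 and Hp 0.85. Ifitm6 and Hp were least alike, at 0.17. Profiles of the same cluster share cells of a kind, so these values describe the pattern only. Outside the 10 genes, the profile most like Ltf (r of 0.90) and Cd177 (0.93) was that of Ceacam10. For Lcn2 it was S100a9 (0.94), for Camp the chitinase-like Chil1 (0.88), for Ngp the lipase gene Lipg (0.87), for Chil3 Lrg1 (0.90), for Pglyrp1 the chemokine receptor gene Cxcr2 (0.90) and for Hp Mgst1 (0.90). Itgb2l was most like Chil1 (0.80) and Ifitm6 most like Ccn3 (0.82).

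Other genes of the granule program were counted by list. Of all genes at 20 CPM or more, 2.31% were at least 2-fold lower over all cells and 2.11% higher. In intermediate granulocyte-like cells these shares were 1.94% and 2.17%. Of 16 other neutrophil granule proteins, 11 reached 20 CPM over all cells, of which 2 were at least 2-fold lower and 1 higher, with a median log2 ratio of 0.022. Below that level Fcnb had a log2 ratio of -1.79 (-1.91 to -1.67) and Olfm4 of -1.69 (-1.85 to -1.53). Mmp25 was at 0.68 and Ceacam1 at 0.09, and Orm1 had 13 and 9 UMIs with an interval that spanned 0. The pentraxin gene Ptx3, a secondary granule constituent, was at 74.0 CPM in DMSO and 26.9 CPM in DAB. Nearly all of it lay outside the intermediate granulocyte-like class, which held 8 of its 6888 UMIs in DMSO and 1 of 3812 in DAB. Cybb, the membrane subunit of the NADPH oxidase, was at 261 and 106 CPM. The protease inhibitor gene Slpi was at 690.0 and 1686 CPM. Mmp9, the gelatinase of tertiary granules, was at 195 and 356 CPM, a log2 ratio of 0.87. In intermediate granulocyte-like cells 2 of 14 were at least 2-fold lower, Cybb (535 and 226 CPM) and the ficolin gene Fcnb (58.5 and 22.4 CPM), and 0 higher, with Mmp8, the collagenase of secondary granules, at 845 and 1137 CPM. Fcnb and Mmp8 are on the marker list used to name this class, so their levels there are not independent of the naming.

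Of 10 primary granule genes, 8 reached 20 CPM over all cells, with 0 at least 2-fold lower and 1 higher, the cathepsin gene Ctsg at 12.0 and 33.5 CPM. Ctsc (333 and 181 CPM, a log2 ratio of -0.87) and Prtn3 (168 and 101 CPM, -0.73) were read lower without reaching 2-fold. Elane, the elastase gene, was at 41.9 CPM in both libraries over all cells, and in intermediate granulocyte-like cells at 14.4 and 35.8 CPM, the 1 of 7 primary granule genes that was 2-fold higher there. Of 12 regulators of granule genes, 8 reached 20 CPM and none was called in either direction. With 2.31% of all genes lower and 2.11% higher, a count of 0 among 8 is near the shares over all genes. Cebpe, the gene for C/EBPε, was at 43.3 CPM in DMSO and 71.2 CPM in DAB, a log2 ratio of 0.72 (0.66 to 0.77). In the intermediate granulocyte-like class it was at 100.3 and 109 CPM, a log2 ratio of 0.12 (-0.02 to 0.26). Cebpe is on the marker list used to name this class, so its level there is not independent of the naming. Cebpd there was at 149 CPM in both libraries, Spi1 at 360.1 and 409 CPM, and Klf5 had the lowest log2 ratio of the 9 regulators that reached 20 CPM there, -0.98 (29.7 and 15.1 CPM). Gfi1, below that level, had 46 and 12 UMIs and a log2 ratio of -1.19 (-2.24 to -0.25). Of 12 partners and receptors of these proteins, 8 reached 20 CPM and 0 were called in either direction, again near the shares over all genes. Pecam1, which binds CD177 in human cells, was at 49.6 and 81.5 CPM, and Itgb2, the β subunit that Itgb2l resembles, at 481 and 538 CPM.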

How the data were processed

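The 2 libraries (MDSC cultured with DAB or with DMSO) were made with 10x Genomics 5′ v2 reagents. The deposited values are counts: the authors obtained raw UMI counts by barcode and gene from Cell Ranger 7.0.0 against an mm10 transcriptome, without normalization, in 9855 DMSO barcodes (106792967 UMIs) and 11631 DAB barcodes (165506902 UMIs). The 10 genes, the gene lists and the rule for naming genes (all 10, up to 4 of each list, and the 3 most alike profiles) were chosen with earlier results of these data known.

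Barcodes above 10% mitochondrial UMIs were removed (55 and 89), none exceeded 4 median absolute deviations for UMI or gene number, and barcodes scored highest against simulated doublets were removed at 0.8% per 1000 cells (768 and 1066). Pearson residuals (theta 100) of 3000 variable genes, without the 10 genes, were cleared of cell cycle and mitochondrial scores and reduced to 40 components. Libraries were aligned by mutual nearest neighbours (k = 20) and clustered by Leiden at resolution 0.9 on a shared neighbour graph (k = 20), in place of Seurat. A cluster was named from 15 marker lists by its highest mean log2 fold (10 CPM added), with 3 or more markers, and most of the detected ones, reaching a log2 fold of 1, and no other class with more markers among its 10 leading genes. For the 3 later granulocyte names, Csf3r or S100a8 had to be above the rest, a condition set with the clusters in view. Lists for macrophage, eosinophil, T or NK, plasmacytoid dendritic, erythroid and early progenitor cells named no cluster.

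UMIs were summed per library and class. Ratios carry exact conditional binomial intervals, levels exact Poisson intervals and shares exact (Clopper-Pearson) binomial intervals, all at 95%, and a count of 0 was read as allowing 3. In simulated counts with 200 changed genes of 5507, the intervals held 95.0% of the true ratios, and 100% of the changed genes fell on the correct side. These counts were drawn from the Poisson model that the intervals assume. The simulation therefore checks the calculation only and holds no spread between cells or cultures. Gene positions are those of GENCODE for GRCm38. The code ran with leidenalg 0.10.2, igraph 0.11.9, scipy 1.17.1, numpy 2.4.6, matplotlib 3.10.9 and pandas 2.3.3 under Python 3.11.15, with seed 1.

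Alternatives were other scalings (total without the 10 genes, median of ratios, mean over cells), no cell filter, doublets kept, a fold of 1.5, a minimum of 5 CPM, clustering with the 10 genes, no alignment, resolutions 0.5 and 1.5, no cell cycle regression, Ly6g cells in place of the intermediate class, and no thinning. Leaving out the cells whose barcode occurs in both libraries was chosen after seeing the data. The authors' integrated object and annotation were not used here.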

Additional observations from a re-analysis of the deposited data

Results flagged for a closer look

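Lcn2 went in opposite directions in 2 classes of granulocytes. Its log2 ratio of DAB over DMSO was -0.71 in intermediate granulocyte-like cells and 1.67 in granulocyte progenitor-like cells, a gap of 2.38. The difference was not tested, since each class has 1 library per condition. In the B cell-like class, taken here as a rough measure of free RNA, Lcn2 was at 168 CPM in DMSO and 126 CPM in DAB, below both classes in both libraries.

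Camp also went in opposite directions, with a log2 ratio of -3.67 in immature monocyte-like and 0.66 in mature monocyte-like cells, a gap of 4.33 that was not tested. The levels were 11.5 CPM in DMSO and 0.902 CPM in DAB in the former and 3.50 and 5.55 CPM in the latter. Camp in B cell-like cells was at 19.3 CPM (10.8 to 31.9) in DMSO and 0.878 CPM (0.022 to 4.89) in DAB. In neither library did the interval of either class lie above that of the B cell-like cells. For mature monocyte-like cells in DAB it was 4.44 to 6.85 CPM. Both classes were deeper in DMSO, with medians of 16997 and 19537.5 UMIs per cell against 4043.5 in B cell-like cells. The part of free RNA in their Camp levels was not tested.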

How the results depend on the processing

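Over all cells, 5 genes were at least 2-fold lower and 0 higher under every other scaling, cell filter and doublet setting tried, and without the cells of shared barcodes. At a fold of 1.5 the counts were also 5 lower and 0 higher. The median log2 ratio of the 10 genes over all cells ranged from -1.27 to -0.88. The single gene whose sign turned was Ifitm6, with a log2 ratio of -0.13 as a mean over cells. On that scale Lcn2 was at -0.84 and Itgb2l at -0.62, both beyond 0.5 in size, while Pglyrp1 (-0.45) and Cd177 (-0.42) were not. Values within classes moved more with the clustering. With the 10 genes among the variable genes, the median was -0.074 in intermediate granulocyte-like, 0.022 in mature PMN-like and -0.15 in immature monocyte-like cells. In chemokine-high granulocyte-like cells it was -0.59 in place of -0.36, and in mature monocyte-like cells 0.74 in place of 0.052, both further from no difference. Clustering with the 10 genes groups cells by the values compared. This can make the libraries more alike within a class, but the medians did not come closer in every class. Without alignment the median was -0.46 in immature and 0.94 in mature monocyte-like cells. The median share of a gene's UMIs in intermediate granulocyte-like cells was 14.4% in DAB with the 10 genes in the clustering, 62.6% in DMSO and 13.5% in DAB without alignment, 9.83% in DAB at resolution 1.5 and 62.1% in DMSO without cell cycle regression. The causes were not tested. The median over the genes of the share of cells with a UMI was 18.9% in DMSO and 12.1% in DAB after thinning and 37.5% and 26.1% without. With a minimum of 5 CPM the background at least 2-fold lower was 3.02%. No paired analysis was possible because each condition has 1 library.

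The depth leaves little counting error on sums over all cells, but 1 library per condition gives no measure of how far cultures differ. Where a class had few UMIs of a gene, a difference of moderate size could not show. An example is Itgb2l in mature PMN-like cells, with 15 UMIs in DMSO and 17 in DAB. The UMIs taken here as free RNA differed between the libraries too, with Chil3 at 377 and 22.8 CPM in the B cell-like class. The part of free RNA in the low levels of other classes was not tested.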
